A study of Mus musculus with 12 samples.

Results

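The genes described here are those of the kinesin family, taken as every row of the expression table whose symbol starts with Kif followed by a digit, or by a lower-case letter and a digit. The rule found 42 of the 23235 rows. They comprised 41 kinesin genes and Kif4-ps, a pseudogene by its symbol. The RNA came from spermatocytes of C57BL/6 mice that a flow sorter had separated into leptotene/zygotene (LZ) and pachytene cells, the successive stages of first meiotic prophase at which homologous chromosomes pair and are then held synapsed. At each stage 3 libraries were labelled as wild type (WT) and 3 as knock-out for Rnaseh1, the nuclease that digests RNA paired with DNA, which gave 4 groups. Libraries of the second genotype are called KO-labelled below. The labels give neither the age of the mice nor how the knock-out was made, and do not say whether replicates came from separate animals, so p-values measure the spread between these libraries. Values are FPKM, fragments normalised to transcript length and library total, scaled between libraries by the authors with ERCC spike-in RNA, so levels can be compared between genes per length. The depth of the libraries is unknown.

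Kinesins are motor proteins that use ATP to move along microtubules or to take their ends apart. Some carry vesicles and organelles through the cytoplasm, some build cilia and flagella by carrying tubulin and axoneme parts to the tip, and others form the spindle, align chromosomes and complete cytokinesis. In the testis these tasks overlap in time, because spermatocytes prepare for the meiotic divisions and also make transcripts for the sperm flagellum that is built after them.

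Changes were called at a Benjamini-Hochberg adjusted p under 0.05 in limma, fitted to the 15400 genes that reached a value of 1 in 3 or more libraries. Values were used as log2(value + 1), which understates the change of low genes. Relative to the mean of the WT LZ group, the summed spike-in-scaled level of all genes was 0.562 to 0.669 times as high in KO-labelled LZ libraries, 4.33 to 5.46 times in WT pachytene and 6.28 to 8.75 times in KO-labelled pachytene libraries. Because most genes moved with these totals, changes are also given on a median-ratio scale, which brings the typical gene to the same level in each library. In bulk RNA, fewer cells of a type and less RNA per cell cannot be told apart. Rnaseh1 itself read 16.1, 20.5 and 16.8 in the WT LZ libraries, 11, 18.3 and 14.8 in the KO-labelled LZ libraries, 52.7, 51.7 and 56.8 in the WT pachytene libraries, and 77.3, 68.9 and 94.3 in the KO-labelled pachytene libraries, and it was not called between the genotypes at either stage (log2 change -0.28, adjusted p = 0.407 at LZ and 0.56, adjusted p = 0.0638 at pachytene). The labels do not say which part of the gene was deleted, so its level checks neither genotype. Each of the 17 leptotene and zygotene markers and 20 pachytene markers in the table was above 0 in some library of each group. From LZ to pachytene in WT 10 of the 17 rose and 3 fell on the spike-in scale, and 3 rose and 9 fell with median-ratio scaling. Markers of other cells differed between the groups. The summed level of 20 round spermatid markers was 2.29% to 3.91% of all FPKM in WT LZ, 0.207% to 1.53% in KO-labelled LZ, 1.04% to 1.52% in WT pachytene and 0.101% to 0.275% in KO-labelled pachytene libraries. That of 11 Leydig cell markers was 0.00181% to 0.00415%, 0.00269% to 0.0251%, 0.0977% to 0.266% and 0.0526% to 0.117% in the same order, and that of 14 Sertoli cell markers was 0.195% to 0.299%, 0.247% to 0.472%, 0.121% to 0.164% and 0.0344% to 0.0493%. Of the Leydig markers 2 and of the Sertoli markers 1 were listed at 0 in every WT LZ library.

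Kinesin levels differed widely between members. Summed over the 42 rows they made up 0.0623% ± 0.00265 of all FPKM in the WT LZ group, 0.062% ± 0.0125 in KO-labelled LZ, 0.0498% ± 0.0122 in WT pachytene and 0.0524% ± 0.00192 in KO-labelled pachytene libraries (SD, n = 3). The members with the highest means over all libraries were Kif9, Kif2a, Kif3a, Kif3b, Kif2c and Kif2b. Kif9, a kinesin-9 motor of the sperm axoneme, read 49.6, 54.8 and 36.6 in the WT LZ libraries, 19.8, 12.9 and 13.1 in the KO-labelled LZ libraries, 368, 260.5 and 501 in the WT pachytene libraries, and 917, 782 and 502 in the KO-labelled pachytene libraries. Kif2a, a kinesin-13 that removes tubulin from microtubule ends and is counted below with transport and other roles, read 55.7, 55.8 and 36.5 in the WT LZ libraries, 29.1, 36.5 and 32.4 in the KO-labelled LZ libraries, 369.9, 226 and 385 in the WT pachytene libraries, and 749, 697 and 501 in the KO-labelled pachytene libraries. For Kif9 and Kif2a the genotypes did not overlap at either stage, with the KO-labelled libraries lower at LZ and higher at pachytene, although the nearest libraries were almost level for Kif2a at LZ and for Kif9 at pachytene. Kif3a, which pairs with Kif3b in the heterotrimeric kinesin-2 of intraflagellar transport, read 50.2, 47.8 and 31.5 in the WT LZ libraries, 35.1, 29.6 and 40.6 in the KO-labelled LZ libraries, 109.7, 147 and 147 in the WT pachytene libraries, and 291, 237 and 205 in the KO-labelled pachytene libraries. Kif3b read 16.8, 15.4 and 9.59 in the WT LZ libraries, 6.58, 6.2 and 6.75 in the KO-labelled LZ libraries, 119, 85.4 and 131 in the WT pachytene libraries, and 251, 209 and 160.0 in the KO-labelled pachytene libraries, which puts its LZ level well below that of Kif3a and its pachytene level close to it. Kif2c, the kinesin-13 of centromeres, read 54.8, 35.3 and 31.1 in the WT LZ libraries, 22.5, 9.56 and 24.6 in the KO-labelled LZ libraries, 96.2, 88.5 and 115 in the WT pachytene libraries, and 139, 107 and 87 in the KO-labelled pachytene libraries. Its genotypes were apart at LZ, where the KO-labelled libraries were the lower ones, and overlapped at pachytene. Kif2b, a further kinesin-13, read 66.8, 46.7 and 65.3 in the WT LZ libraries, 51.2, 1.98 and 38.4 in the KO-labelled LZ libraries, 187, 95.5 and 135 in the WT pachytene libraries, and 33.9, 21.6 and 66.9 in the KO-labelled pachytene libraries. The KO-labelled LZ libraries of Kif2b were far apart, with replicate 2 near 2 and the others between 38.4 and 51.2.

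The members were grouped by role from textbook knowledge, and they differed in how much of the kinesin total they held at each stage. The 14 members of mitosis and cytokinesis held 48.3% to 56% of the summed kinesin level in WT LZ libraries, and 32.3% to 33.7% in WT pachytene libraries. The 9 members of the cilium, flagellum and Hedgehog group held 25% to 30.3% and 38.7% to 42.6%. In the KO-labelled libraries the mitosis group went from 41.9% to 54.6% at LZ to 22% to 26.3% at pachytene. The 18 members of transport and other roles held the rest, apart from Kif4-ps. Kif2a was counted there, although its relatives Kif2b and Kif2c were counted with mitosis. It averaged 327 in WT pachytene libraries, where the 18 members summed to 338 to 539, so the shares of both groups depend on that placement. Among them Kif5b, the broadly expressed heavy chain of conventional kinesin, averaged 18.5 ± 3.13 at LZ and 35.7 ± 7.52 at pachytene in WT (SD, n = 3). Its relatives Kif5a and Kif5c, known mainly from neurons, were at 2.25 ± 0.596 and 3.47 ± 0.764 in WT pachytene libraries. The minus-end motor Kifc3 was at 5.98 ± 3.42 and 38 ± 5.03, and the endosome motor Kif16b at 4.35 ± 0.816 and 16.3 ± 5.25, at the same stages. The filter removed 5 members, Kif1a, Kif12, Kif19a, Kif26a and Kif26b, and 37 passed. Kif1a, a neuronal vesicle motor, reached at most 0.882 in any library, Kif26a at most 0.911 and Kif26b at most 0.386. Kif12 was listed at 0 in 11 of the 12 libraries. Kif19a, a kinesin-8 that limits the length of cilia, read 3.18, 1.72 and 0.723 in the KO-labelled pachytene libraries and at most 0.634 elsewhere. Kif3c and Kif13a passed the filter through pachytene libraries alone, reaching 1 in 3 and 4 of them. At LZ, Kif5a and Kif5c reached 1 in WT replicate 1 alone (2.35 and 1.66). Kifc5b did so in WT LZ replicate 1 (1.13) and KO-labelled LZ replicate 3 (1.37) alone. Those members also needed pachytene libraries to pass, so the stage changes of all these follow in part from the filter. Kif13a, Kif5c and Kifc5b are among the members called higher at pachytene in WT, and all of these among those in KO-labelled libraries.

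The other members whose changes are described below had these values. In the mitosis and cytokinesis group, Kif20a, a motor of the central spindle, read 25.5, 24.5 and 19.1 in the WT LZ libraries, 10.4, 7.2 and 17.8 in the KO-labelled LZ libraries, 58.9, 49.8 and 107 in the WT pachytene libraries, and 120.0, 113 and 88.5 in the KO-labelled pachytene libraries. Kif20b, a relative with a part in abscission, read 14.4, 11.4 and 11.9 in the WT LZ libraries, 5.98, 6.3 and 9.64 in the KO-labelled LZ libraries, 64, 38.8 and 68.7 in the WT pachytene libraries, and 87.2, 81.1 and 68.8 in the KO-labelled pachytene libraries. Kif15, which can hold spindle poles apart together with Kif11, read 14.1, 11 and 10.8 in the WT LZ libraries, 6.11, 6.27 and 12.3 in the KO-labelled LZ libraries, 75.7, 48 and 71.9 in the WT pachytene libraries, and 97.7, 96.8 and 81 in the KO-labelled pachytene libraries. The pachytene libraries of these 3 were all above the LZ libraries of both genotypes. Kif11 read 14.6, 15.1 and 13.4 in the WT LZ libraries and 7.7, 11.2 and 13.7 in the KO-labelled LZ libraries, and its pachytene values are given with the comparison there. Kif22, a chromokinesin, read 39.9, 32.5 and 26.8 in the WT LZ libraries, 22.7, 18.5 and 31.8 in the KO-labelled LZ libraries, 45.9, 65.9 and 72.2 in the WT pachytene libraries, and 92.1, 85.3 and 81.1 in the KO-labelled pachytene libraries. Kif14, which acts in cytokinesis, read 2.5, 1.99 and 1.59 in the WT LZ libraries, 0.849, 1.47 and 1.34 in the KO-labelled LZ libraries, 6.09, 4.57 and 7.18 in the WT pachytene libraries, and 10.3, 7.8 and 8.73 in the KO-labelled pachytene libraries. Kif14 was far below Kif22 and Kif20a in each group, as was Kif18b, which read 7.71, 6.37 and 6.35 in WT and 9.06, 11.6 and 7.31 in KO-labelled libraries at pachytene. Kif18a, the kinesin-8 that aligns chromosomes, averaged 10.5 ± 1.64, 7.64 ± 1.21, 29.8 ± 10.6 and 36.2 ± 5.6 in WT and KO-labelled cells at LZ and then in WT and KO-labelled cells at pachytene (SD, n = 3).

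Among the transport motors, Kifc3 read 9.91, 3.69 and 4.34 in the WT LZ libraries, 3.68, 2.06 and 3.18 in the KO-labelled LZ libraries, 36.9, 33.6 and 43.5 in the WT pachytene libraries, and 74.8, 57.7 and 65.9 in the KO-labelled pachytene libraries. Kif21b, a neuronal relative of Kif21a, read 1.93, 1.44 and 1.51 in the WT LZ libraries, 0.879, 0.23 and 0.642 in the KO-labelled LZ libraries, 6.1, 5.02 and 8.05 in the WT pachytene libraries, and 14.1, 10.1 and 7.91 in the KO-labelled pachytene libraries. Kif13b, a vesicle motor, read 1.6, 1.62 and 1.48 in the WT LZ libraries, 1, 0.301 and 1.29 in the KO-labelled LZ libraries, 2.27, 2.56 and 2.09 in the WT pachytene libraries, and 3.26, 2.78 and 1.64 in the KO-labelled pachytene libraries. Both stayed low at LZ and were higher in every pachytene library than in any LZ library, for Kif13b by a narrow margin (1.64 against 1.62). Kif1c, which also carries vesicles, read 2.54, 1.52 and 0.698 in the WT LZ libraries, 1, 0.651 and 1.43 in the KO-labelled LZ libraries, 2.8, 1.79 and 1.6 in the WT pachytene libraries, and 1.34, 1.1 and 1.35 in the KO-labelled pachytene libraries. Kif3c, a further kinesin-2 subunit, read 0.807, 0.332 and 0.29 in the WT LZ libraries, 0.11, 0.00906 and 0.291 in the KO-labelled LZ libraries, 0.775, 0.809 and 1.01 in the WT pachytene libraries, and 1.4, 1.43 and 0.773 in the KO-labelled pachytene libraries. Kif13a, an endosome motor, read 0.226, 0.0428 and 0.262 in the WT LZ libraries, 0.118, 0.0813 and 0.05 in the KO-labelled LZ libraries, 1.35, 1.04 and 0.726 in the WT pachytene libraries, and 1.03, 0.752 and 1.33 in the KO-labelled pachytene libraries. These 3 stayed under 3 in every library. Kifc2, a minus-end relative of Kifc3, averaged 1.47 ± 0.69 at LZ and 9.6 ± 2.35 at pachytene in WT, and the mitochondrion and vesicle motor Kif1b 5.79 ± 0.778 and 15.5 ± 3.82 (SD, n = 3). In the cilium group Kif7 read 4.33, 4.53 and 2.16 in the WT LZ libraries, 1.84, 1.07 and 0.987 in the KO-labelled LZ libraries, 6.41, 8.83 and 13.4 in the WT pachytene libraries, and 22.4, 15.5 and 7.68 in the KO-labelled pachytene libraries, with the KO-labelled libraries below WT at LZ. Kif6 read 1.1, 0.67 and 2.16 in the KO-labelled LZ libraries, Kif27 9.1, 3.75 and 8.13, Kif4-ps 2.02, 1.13 and 0.846 and Kif4 2.64, 7.28 and 7.

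**Figure D1:**
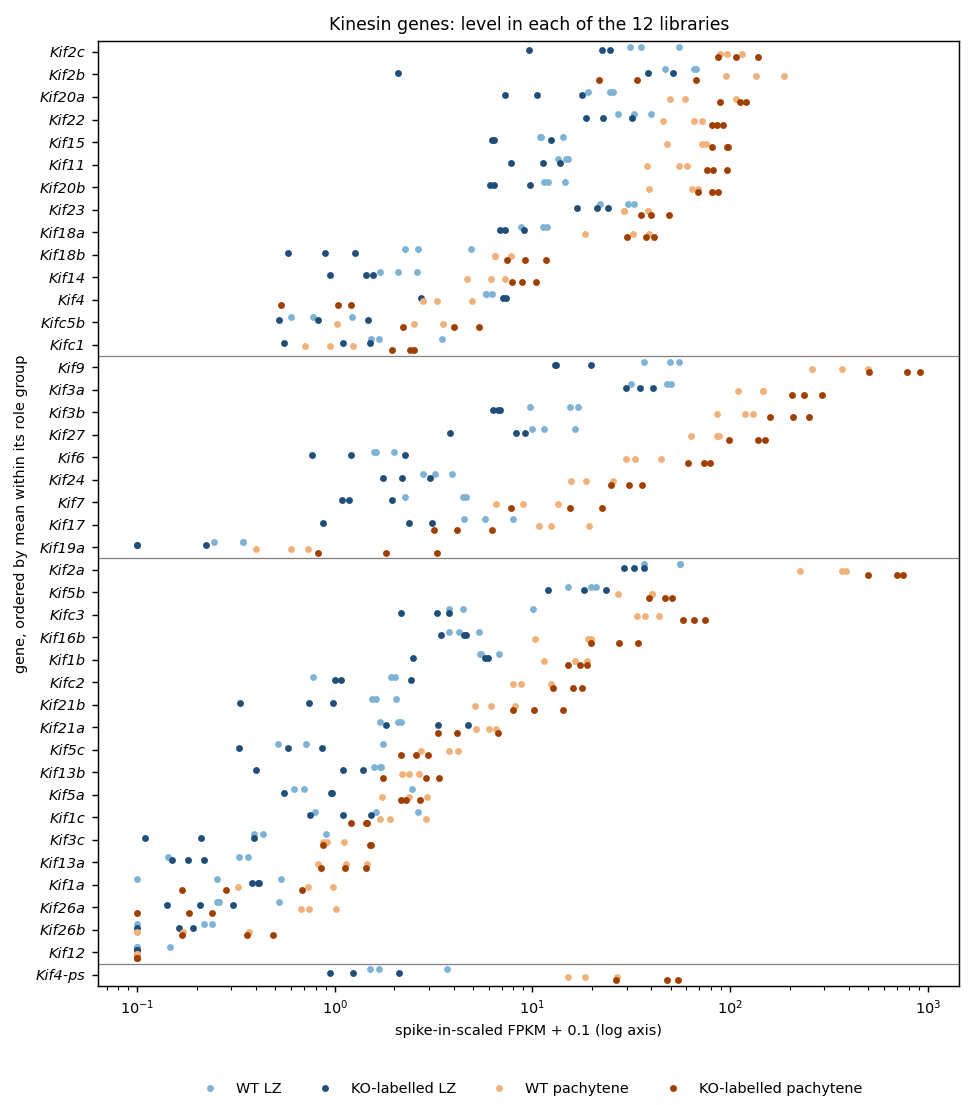
Spike-in-scaled FPKM plus 0.1 (log axis) of the 42 kinesin genes in each of the 12 libraries, ordered by mean within role groups (mitosis and cytokinesis at the top, then cilium, flagellum and Hedgehog, then transport and other, then the pseudogene). Points are libraries coloured by group, and Kif9 reaches the highest values, up to 917 in a KO-labelled pachytene library.

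The first comparison set WT pachytene against WT LZ libraries, the change between stages without the knock-out. On the spike-in scale 29 of 37 members rose and 1 fell, against 80.9% and 0.487% of all genes tested. The median log2 change was 1.28 over the members and 1.64 over all genes, and 24 members lay below the median of all genes. The stages did not overlap, in either direction, for 32 of 37 members and 83.9% of all genes. On the median-ratio scale this held for 24 members and 53.1% of all genes. With median-ratio scaling 5 members rose and 8 fell, against 20.2% and 18.1% of all genes. The 5 were Kif6, Kif9, Kif3b, Kif2a and Kif4-ps, and the 8 were Kif4, Kif23, Kifc1, Kif22, Kif5b, Kif13b, Kif1c and Kif18b. Markers of other cells moved as well. Of 11 Leydig markers 11 rose, of 12 tested Sertoli markers 10, of 10 tested peritubular and endothelial markers 9, of 11 tested blood and macrophage markers 10, of 12 spermatogonium markers 7 and of 20 round spermatid markers 6. With median-ratio scaling these counts were 10, 0, 8, 7, 2 and 0. Of the 20 pachytene markers 19 rose, and 15 did with median-ratio scaling. Their part in the kinesin changes was not tested.

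The largest rises among the members were in motors of cilia and flagella. Kif6, a kinesin-9 like Kif9, read 1.47, 1.88 and 1.52 in the WT LZ libraries and 33.1, 29.7 and 44.5 in the WT pachytene libraries. Every pachytene library lay far above every LZ library (log2 change 3.79, SE 0.28, adjusted p = 8.00e-08), and on the median-ratio scale the change was 2.06 (SE 0.26, adjusted p = 0.000164). Kif9 rose 8.01-fold in its group mean (log2 change 2.94, SE 0.29, adjusted p = 7.89e-07), with 0.90 (SE 0.24, adjusted p = 0.0107) on the median-ratio scale. Kif3b rose 8.03-fold (log2 change 2.93, SE 0.26, adjusted p = 2.90e-07), and 0.93 (SE 0.16, adjusted p = 0.000979) on the median-ratio scale, whereas its partner Kif3a had a log2 change of 1.63, next to the median of all genes, and -0.40 (SE 0.15, adjusted p = 0.0557) on the median-ratio scale. Kif27, a kinesin-4 of motile cilia, read 16.3, 11.3 and 9.83 in the WT LZ libraries and 88.3, 63.2 and 86 in the WT pachytene libraries (log2 change 2.58, SE 0.31, adjusted p = 4.00e-06), and its change was 0.60 (SE 0.26, adjusted p = 0.0907) on the median-ratio scale. The remaining members of the group with a value passed the test on the spike-in scale as well. They were Kif24, which acts at centrioles (log2 change 2.29), Kif7, a regulator of Hedgehog signalling at the cilium tip (1.16), and Kif17, the homodimeric kinesin-2 (1.10). On the median-ratio scale Kif24, Kif7 and Kif17 changed by 0.49, -0.57 and -0.74, none of them called. All 8 tested members of the group rose on the spike-in scale, where 80.9% of all genes did. On the median-ratio scale 3 rose and 0 fell, against 20.2% and 18.1% of all genes.

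Outside that group, the highest changes were those of Kif2a (log2 change 2.69, SE 0.26, adjusted p = 5.59e-07), with 0.64 (SE 0.18, adjusted p = 0.0152) on the median-ratio scale, and of Kif4-ps. Kif4-ps read 1.41, 3.58 and 1.57 in the WT LZ libraries and 18.4, 15 and 26.6 in the WT pachytene libraries (log2 change 2.75, SE 0.36, adjusted p = 8.54e-06), and 1.02 (SE 0.37, adjusted p = 0.0461) on the median-ratio scale. Its namesake Kif4, a chromokinesin that the RefSeq table places on the X chromosome, went the other way. Kif4 read 5.69, 6.13 and 5.69 in the WT LZ libraries and 4.85, 3.18 and 2.68 in the WT pachytene libraries, with each pachytene library below each LZ library. Its change did not pass the test on the spike-in scale (log2 change -0.61, SE 0.33, adjusted p = 0.102) and did on the median-ratio scale, at -2.22 (SE 0.34, adjusted p = 0.000485). As background, most genes of the X chromosome are silenced at pachytene. In the GENCODE M21 transcripts, 0.366% of the distinct stretches of 50 bases of Kif4-ps also occur in Kif4, so few reads would match both exactly.

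Of the 6 lowest changes, 3 were in spindle and cytokinesis motors and 3 in transport motors. Kifc1, a minus-end motor of the spindle, read 3.37, 1.58 and 1.42 in the WT LZ libraries and 0.608, 0.846 and 1.14 in the WT pachytene libraries and was the single member called lower on the spike-in scale (log2 change -0.70, SE 0.29, adjusted p = 0.0366), with -1.78 (SE 0.28, adjusted p = 0.00056) on the median-ratio scale. That call was lost without WT LZ replicate 1 or without WT pachytene replicate 1 or 2, and Kif4 was called without KO-labelled LZ replicate 1 (adjusted p = 0.0497). Kifc1 shares 38.6% of its distinct 50-base stretches with its close copy Kifc5b, so the split of reads between them is uncertain. Kifc5b read 1.13, 0.5 and 0.671 in the WT LZ libraries and 0.93, 2.43 and 3.44 in the WT pachytene libraries. Kif23, which bundles microtubules of the central spindle, read 32.4, 30.4 and 21.8 in the WT LZ libraries and 29, 28.8 and 38.2 in the WT pachytene libraries. Its groups overlapped on the spike-in scale (log2 change 0.18, SE 0.24, adjusted p = 0.477), while on the median-ratio scale it fell by 1.81 (SE 0.14, adjusted p = 2.57e-05). Kif1c, Kif3c and Kif13b completed the 6 lowest, with log2 changes of 0.29, 0.35 and 0.36 on the spike-in scale (lowest adjusted p = 0.175) and -0.94, -0.40 and -0.96 on the median-ratio scale. Of the 14 members of mitosis and cytokinesis 10 rose and 1 fell on the spike-in scale, and on the median-ratio scale 0 rose and 5 fell. Of all genes 80.9% rose and 0.487% fell on the spike-in scale, and 20.2% and 18.1% on the median-ratio scale. Kif2a, which rose on both scales, is not counted among these 14. The spindle motor Kif15 and the cytokinesis motor Kif20b stood highest among the 14, at 2.33 and 2.06 on the spike-in scale. Of the 14 tested members of transport and other roles 10 rose and 0 fell, and with median-ratio scaling 1 rose, Kif2a, and 3 fell, Kif5b, Kif13b and Kif1c.

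**Figure D2:**
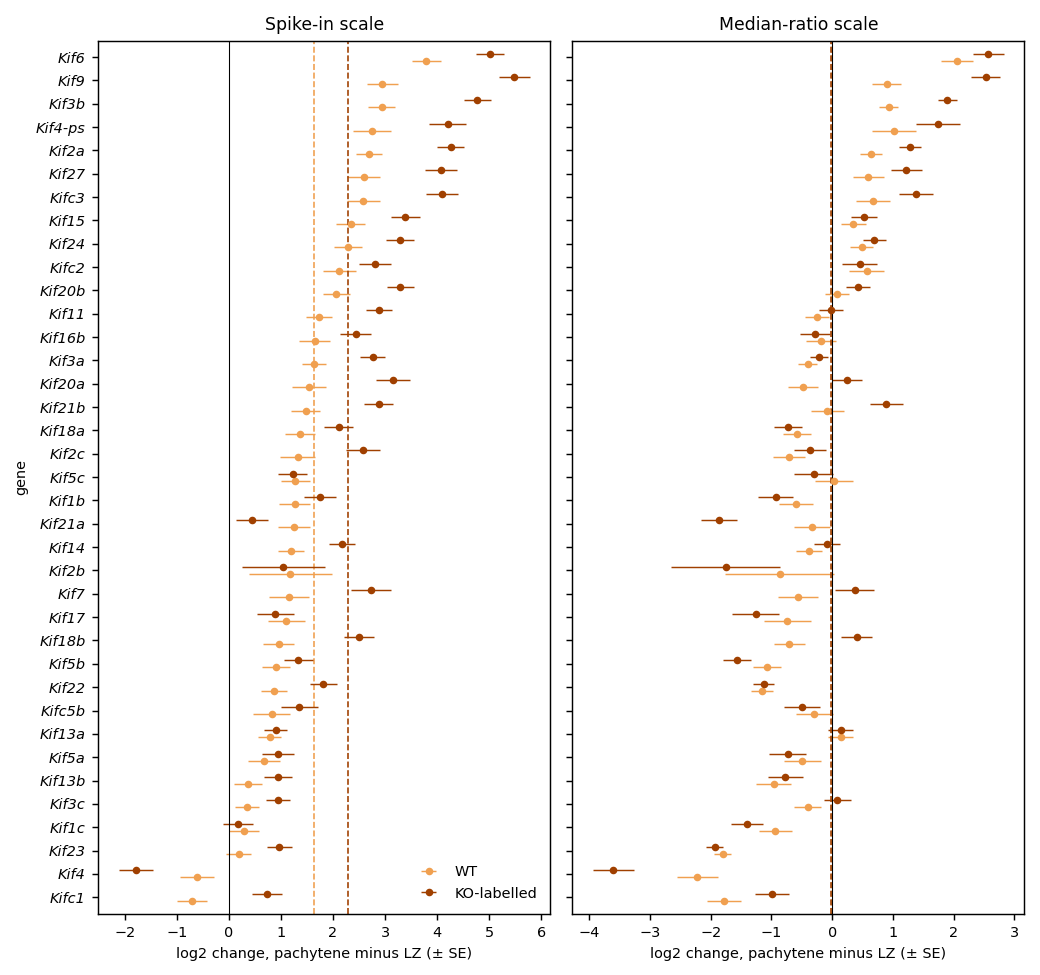
Log2 change from LZ to pachytene with its SE for the 37 tested kinesin genes, in WT and KO-labelled libraries, on the spike-in scale (left) and the median-ratio scale (right). Dashed lines mark the median of all 15400 genes in each genotype. In WT on the right Kif6, Kif4-ps and Kif3b lie highest, followed by Kif9, and Kif4, Kif23 and Kifc1 lie lowest.

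Promoter sequences of 33 of the 42 members were found by symbol in the RefSeq table of assembly GRCm38.p6, which holds 300 bases per start, from 250 before to 50 after it. This is a later build than the mm9 of the authors' alignment, and the expression values carry no coordinates. The letters TTTGAA on either strand are the core of the cell cycle genes homology region (CHR), an element of promoters that are active in G2 and mitosis. They occurred in the promoters of 11 of 13 members of mitosis and cytokinesis that were in the table, 1 of 8 of the cilium, flagellum and Hedgehog group, 1 of 12 of the transport and other group, and 18.1% of the first listed promoters of all 27025 genes. The 11 were Kif2c, Kif4, Kif11, Kif14, Kif15, Kif18b, Kif20b, Kif22, Kif23, Kifc1 and Kifc5b. The cilium group member was Kif27, and that of the transport group was Kif26b. The letters CCAAT, on either strand, occurred in 16 of 33 member promoters against 37.9% of all. The letters CAACTG or else TAACTG, and likewise the letters CAACGG or else TAACGG, are sites of the MYB family that includes the pachytene regulator A-MYB. Some form of them, on either strand, occurred in 6 of 33 against 28.2%. A match is a description of the sequence, not a measured site.

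The stretches from 170 bases before to 30 after the start are shown for the 3 coding members with the highest and 3 of those with the lowest median-ratio change from LZ to pachytene in WT, 5′ to 3′ on the strand of the gene, with TTTGAA or its reverse complement TTCAAA in capitals. Kif6 lies at chr17:49615002-49615201 on the plus strand, Kif9 at chr9:110476788-110476987 on the plus strand and Kif3b at chr2:153291246-153291445 on the plus strand. Kif23 lies at chr9:61946770-61946969 on the minus strand, Kifc1 at chr17:33890604-33890803 on the minus strand and Kif4 at chrX:100625895-100626094 on the plus strand. In the upper 3 the letters do not occur in this window, and in the lower 3 they stand within 30 bases after the start.
Kif6: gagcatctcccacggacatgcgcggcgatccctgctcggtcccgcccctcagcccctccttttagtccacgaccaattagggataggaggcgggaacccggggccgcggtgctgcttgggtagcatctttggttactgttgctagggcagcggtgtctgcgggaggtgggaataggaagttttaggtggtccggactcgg
Kif9: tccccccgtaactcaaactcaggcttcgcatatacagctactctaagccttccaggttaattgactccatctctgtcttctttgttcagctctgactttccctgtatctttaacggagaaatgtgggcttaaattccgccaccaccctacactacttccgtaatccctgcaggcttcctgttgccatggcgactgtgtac
Kif3b: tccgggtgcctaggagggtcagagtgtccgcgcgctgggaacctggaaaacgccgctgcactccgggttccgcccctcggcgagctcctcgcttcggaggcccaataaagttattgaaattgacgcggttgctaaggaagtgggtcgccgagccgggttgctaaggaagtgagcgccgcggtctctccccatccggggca
Kif23: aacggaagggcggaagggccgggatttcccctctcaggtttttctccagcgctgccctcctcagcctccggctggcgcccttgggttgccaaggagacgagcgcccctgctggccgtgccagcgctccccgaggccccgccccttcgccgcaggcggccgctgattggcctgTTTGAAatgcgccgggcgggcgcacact
Kifc1: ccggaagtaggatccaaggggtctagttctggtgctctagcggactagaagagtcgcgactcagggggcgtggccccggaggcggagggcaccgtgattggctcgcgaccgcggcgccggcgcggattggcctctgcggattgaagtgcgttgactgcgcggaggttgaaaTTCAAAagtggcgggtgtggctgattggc
Kif4: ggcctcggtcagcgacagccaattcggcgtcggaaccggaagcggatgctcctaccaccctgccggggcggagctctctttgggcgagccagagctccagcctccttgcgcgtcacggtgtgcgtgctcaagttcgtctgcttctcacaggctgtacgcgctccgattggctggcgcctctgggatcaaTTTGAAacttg

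The same stage comparison was made within the KO-labelled libraries. On the spike-in scale 33 of 37 members rose and 1 fell, against 76.8% and 2.83% of all genes, around a median of 2.44 for the members and 2.29 for all genes. On the median-ratio scale 9 rose and 11 fell, against 31.1% and 29.7% of all genes. The 5 members that rose on that scale in WT also rose here, with Kif27, Kifc3, Kif24 and Kif21b in addition. Of the 8 that fell in WT, 7 fell here, the exception being Kif18b, and Kif17, Kif18a, Kif1b and Kif21a fell in addition. Of other markers, 10 of 11 Leydig, 10 of 11 blood and macrophage, 1 of 12 Sertoli, 6 of 10 peritubular and endothelial, 2 of 12 spermatogonium, 3 of 20 round spermatid and 20 of 20 pachytene markers rose on the spike-in scale, and 8, 10, 1, 2, 1, 1 and 18 with median-ratio scaling. The part of these cells was not tested. Whether a stage change differs between the genotypes is the test of the difference of the KO effects, given last.

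Kif9 had the largest change, from 15.3 ± 3.91 to 734 ± 211 (SD, n = 3), a 48.1-fold rise in the group mean (log2 change 5.48, SE 0.29, adjusted p = 1.01e-09), and 2.53 (SE 0.24, adjusted p = 5.44e-06) on the median-ratio scale. Kif6 went from 1.31 ± 0.768 to 71.4 ± 8.91 (log2 change 5.01, SE 0.28, adjusted p = 1.17e-09). Kif3b had a log2 change of 4.77, Kif2a of 4.26, Kif4-ps of 4.20 and Kifc3 of 4.09, and these 4 were 1.90, 1.27, 1.75 and 1.39 on the median-ratio scale. At the other end Kif4 fell from 5.64 ± 2.6 to 0.826 ± 0.351 (log2 change -1.79, SE 0.33, adjusted p = 0.000173), the single member called lower on the spike-in scale. Kif21a, a kinesin-4 that restrains microtubule growth, averaged 3.18 ± 1.45 and 4.63 ± 1.78 (log2 change 0.45, SE 0.31, adjusted p = 0.198) and fell on the median-ratio scale, at -1.86 (SE 0.30, adjusted p = 0.000213). The other members with low changes were Kif1c (0.18), Kifc1 (0.73), Kif17 (0.89) and Kif13a (0.90), of which Kifc1, Kif17 and Kif13a rose on the spike-in scale. The call of Kifc1 was lost without KO-labelled LZ replicate 1 or 2 or KO-labelled pachytene replicate 1 or 3 (adjusted p = 0.0556 to 0.134), and that of Kif17 without KO-labelled LZ replicate 2 or KO-labelled pachytene replicate 2 or 3 (adjusted p = 0.057 to 0.177). The median-ratio changes of Kif1c, Kifc1, Kif17 and Kif13a were -1.40, -0.99, -1.26 and 0.14.

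The knock-out label was then compared with WT within LZ. Of 37 members 5 fell, Kif9, Kif17, Kif18b, Kif2c and Kif3b, and 0 rose, against 12.9% and 0.136% of all genes, and the share of members that fell was 13.5%, near that of all genes. At an unadjusted p under 0.05, 13 were lower and 0 higher, but all genes were not counted at that threshold, so this count has no background. The median log2 change was -0.43 both over the members and over all genes. The genotypes did not overlap, in either direction, for 15 of 37 members and 37.5% of all genes. On the median-ratio scale this held for 8 members and 18.3% of all genes. With median-ratio scaling 0 members fell and 0 rose in limma, against 0.688% and 0.39% of all genes at the same adjusted p. At an unadjusted p under 0.05, 6 members were lower and 1 higher on that scale, again without a count of all genes.

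Kif9 had the largest called change, from 47 ± 9.35 to 15.3 ± 3.91 (SD, n = 3), and its 3 KO-labelled libraries lay below its 3 WT libraries (log2 change -1.57, SE 0.29, adjusted p = 0.015). Its median-ratio change was -1.02 (SE 0.24, adjusted p = 0.0612), still without overlap between the groups. Kif17, which in spermatids binds a coactivator of the transcription factor CREM, read 7.9, 5.64 and 4.39 in the WT LZ libraries and 2.99, 0.773 and 2.27 in the KO-labelled LZ libraries (log2 change -1.26, SE 0.36, adjusted p = 0.0381). Kif18b, a kinesin-8 that shortens astral microtubules, read 4.8, 2.52 and 2.17 in the WT LZ libraries and 0.792, 0.48 and 1.17 in the KO-labelled LZ libraries (log2 change -1.17, SE 0.29, adjusted p = 0.0264). Each KO-labelled library lay below each WT library for Kif17 and Kif18b, on both scales, with median-ratio changes of -0.98 and -1.06. For Kif2c (log2 change -1.12, SE 0.33, adjusted p = 0.0433) and Kif3b (log2 change -0.96, SE 0.26, adjusted p = 0.0334) the groups did not overlap on the spike-in scale either, and the median-ratio changes were -0.57 and -0.45. Kif2b had a lower change than these, at -1.71, but did not pass the test (SE 0.80, adjusted p = 0.15). Kif21a, a kinesin-4 that restrains microtubule growth, lay at the upper end of the members and read 1.99, 2.06 and 1.59 in the WT LZ libraries and 1.71, 3.23 and 4.61 in the KO-labelled LZ libraries (log2 change 0.48, SE 0.31, adjusted p = 0.285). Its median-ratio change was 1.06 (SE 0.30, adjusted p = 0.096), with every KO-labelled library above every WT library.

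The round spermatid markers moved in the same direction at LZ. Of 20, 11 fell and 0 rose, with a median log2 change of -2.17, and their summed level was 16342 to 34592 in WT and 988 to 6593 in KO-labelled libraries, with 0 of the 20 at 0 in either group. Of 20 pachytene and A-MYB markers 13 fell, with a median of -0.98. With median-ratio scaling 0 of the spermatid markers and 0 of the pachytene markers were called lower in limma, at medians of -1.67 and -0.39. Their part in the kinesin changes was not tested. The calls at LZ depended on a few libraries. Without WT LZ replicate 1, WT LZ replicate 2 or KO-labelled LZ replicate 3 the number of members called lower was 0, without KO-labelled LZ replicate 2 it was 1, and without WT pachytene replicate 2 it was 3. The count over all genes, 1992, was 6, 4, 88, 341 and 1591 in these 5 settings. When limma was given only the 6 LZ libraries, 0 members and 0 of all genes were called, and the adjusted p of the 5 was 0.0679 to 0.122.

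At pachytene 8 of 37 members rose in the KO-labelled libraries and 2 fell, against 24.6% and 14.3% of all genes. The shares of 21.6% and 5.41% were each below those of all genes. The median log2 change was 0.51 over the members and 0.37 over all genes. The genotypes did not overlap, in either direction, for 19 of 37 members and 54.5% of all genes. On the median-ratio scale this held for 15 members and 46.7% of all genes. With median-ratio scaling 1 member rose, Kif2a, and 1 fell, Kif17, against 3.28% and 9.68% of all genes.

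The members that rose included motors of intraflagellar transport and the axoneme. Kif9 read 368, 260.5 and 501 in the WT pachytene libraries and 917, 782 and 502 in the KO-labelled pachytene libraries, where the lowest KO-labelled library lay just above the highest WT library (log2 change 0.97, SE 0.29, adjusted p = 0.0257). Kif6 read 33.1, 29.7 and 44.5 in the WT pachytene libraries and 78.6, 74 and 61.4 in the KO-labelled pachytene libraries, with a clear gap between the groups (log2 change 0.99, SE 0.28, adjusted p = 0.0199). Kif3a and Kif3b rose by similar amounts, with log2 changes of 0.85 (SE 0.24, adjusted p = 0.0196) and 0.88 (SE 0.26, adjusted p = 0.0238). Their median-ratio changes, in the order Kif9, Kif6, Kif3a and Kif3b, were 0.61, 0.62, 0.49 and 0.52, none of them called (adjusted p = 0.0538 to 0.125). Kif2a rose from 327 ± 87.9 to 649 ± 131 (SD, n = 3; log2 change 1.01, SE 0.26, adjusted p = 0.0161), and was called on the median-ratio scale as well, at 0.65 (SE 0.18, adjusted p = 0.0393). Kif11, the motor that separates the spindle poles, read 55.1, 37.8 and 60.3 in the WT pachytene libraries and 96.2, 81.7 and 76.5 in the KO-labelled pachytene libraries (log2 change 0.74, SE 0.25, adjusted p = 0.0355). Kifc1 read 0.608, 0.846 and 1.14 in the WT pachytene libraries and 2.31, 1.84 and 2.43 in the KO-labelled pachytene libraries (log2 change 0.78, SE 0.29, adjusted p = 0.0464), and this carries the uncertainty about Kifc5b given above. Kif4-ps read 18.4, 15 and 26.6 in the WT pachytene libraries and 48.1, 54.4 and 26.3 in the KO-labelled pachytene libraries (log2 change 1.04, SE 0.36, adjusted p = 0.0375), and WT replicate 3 lay just above the lowest KO-labelled library.

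The members that fell at pachytene were Kif17 and Kif4. Kif17 read 19.2, 12.3 and 10.6 in the WT pachytene libraries and 3.07, 4.06 and 6.17 in the KO-labelled pachytene libraries, with every KO-labelled library below every WT library (log2 change -1.47, SE 0.36, adjusted p = 0.014), and its median-ratio change was -1.504 (SE 0.39, adjusted p = 0.0286). It was the single member called lower at both stages on the spike-in scale. Kif4 read 4.85, 3.18 and 2.68 in the WT pachytene libraries and 0.434, 1.11 and 0.933 in the KO-labelled pachytene libraries, again without overlap (log2 change -1.31, SE 0.33, adjusted p = 0.0154), and its median-ratio change was -1.01 (SE 0.34, adjusted p = 0.0688). Kif2b read 187, 95.5 and 135 in the WT pachytene libraries and 33.9, 21.6 and 66.9 in the KO-labelled pachytene libraries. Its groups did not overlap either, with a 3.41-fold lower group mean in the KO-labelled libraries, but the change did not pass the test (log2 change -1.84, SE 0.80, adjusted p = 0.0767). The fit takes 1 error per gene from all 4 groups, including the widely spread KO-labelled LZ group. The round spermatid markers were lower too. Of 20, 17 fell, with a median log2 change of -2.40 and a summed level of 43406 to 50629 in WT and 5813 to 13233 in KO-labelled pachytene libraries. The pachytene and A-MYB markers moved the other way, with 15 of 20 higher and a median of 0.96. With median-ratio scaling 16 of the spermatid markers were lower and 5 of the pachytene markers higher, at medians of -2.71 and 0.60. Of 12 spermatogonium markers 9 were lower and 1 higher, of 12 tested Sertoli markers 3 and 0, and of 10 peritubular and endothelial markers 6 and 1. The part of these cells in the changes of Kif17, Kif2b, Kif9 and the others was not tested.

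The number of members called at pachytene also rested on a few libraries. It was 1 higher without WT pachytene replicate 1 or 2 and 0 higher without KO-labelled pachytene replicate 1 or 2. The number called lower was 0 without WT pachytene replicate 1 or KO-labelled pachytene replicate 1. With a pseudocount of 5 the number called higher was 15. Over all genes 3784 were called higher, and 933, 797, 300 and 370 without these 4 libraries in turn, or 5179 with the pseudocount of 5. Those called lower were 2196 in all, 1232 without WT pachytene replicate 1 and 1071 without KO-labelled pachytene replicate 1.

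**Figure D3:**
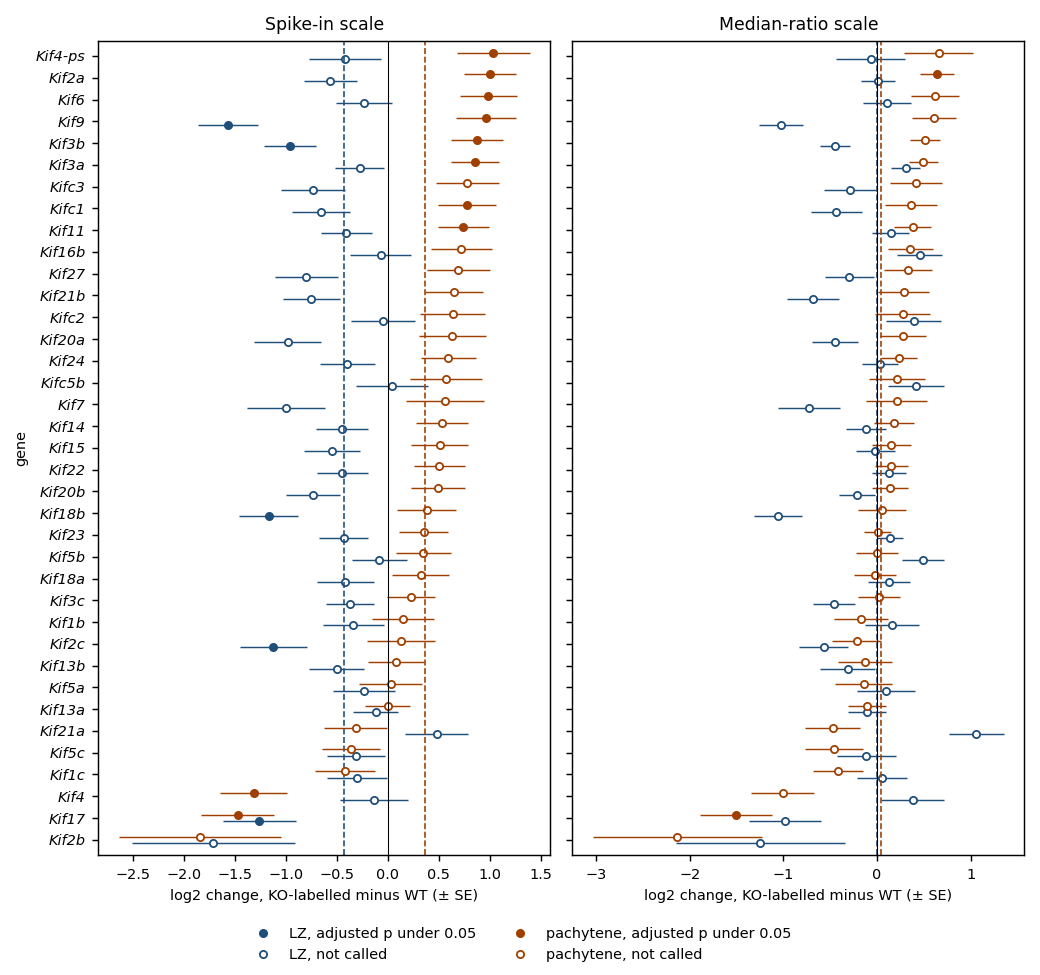
Log2 difference between KO-labelled and WT libraries with its SE for the 37 tested kinesin genes at LZ and at pachytene, on the spike-in scale (left) and the median-ratio scale (right). Filled points have an adjusted p under 0.05 and dashed lines mark the median of all 15400 genes, and on the right Kif2a and Kif17 at pachytene are the filled points.

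Last, the KO effect at LZ was subtracted from that at pachytene and the difference itself was tested. It was positive and called for 19 of 37 members and negative and called for 0 in limma, against 34.9% and 3.49% of all genes. At an unadjusted p under 0.05, a threshold at which all genes were not counted, 1 member was negative. The median difference was 0.98 over the members and 0.72 over all genes. With median-ratio scaling 2 members were called higher, Kif9 and Kif3b, and 0 lower in limma, against 2.29% and 4.39% of all genes. At an unadjusted p under 0.05, 2 members were lower on that scale, again without a count of all genes. Kif9 had the largest difference of all members, at 2.54 (SE 0.42, adjusted p = 0.00493) on the spike-in scale and 1.63 (SE 0.33, adjusted p = 0.0239) on the median-ratio scale. Kif3b followed, at 1.83 (SE 0.37, adjusted p = 0.00546) and 0.96 (SE 0.23, adjusted p = 0.0341). These were also the 2 members called lower at LZ and higher at pachytene, from the same libraries. By role, 6 of 8 tested members of the cilium, flagellum and Hedgehog group, 9 of 14 of mitosis and cytokinesis and 3 of 14 of transport and other roles were called on the spike-in scale. At the lower end Kif4 had a difference of -1.18 (SE 0.47, adjusted p = 0.0604) and Kif21a of -0.80 (SE 0.44, adjusted p = 0.159), and on the median-ratio scale they were -1.39 (SE 0.48, adjusted p = 0.0968) and -1.53 (SE 0.42, adjusted p = 0.0505). The count of 19 was 8 to 12 without WT LZ replicate 2, KO-labelled LZ replicate 2, or replicate 1 or 2 of either pachytene group, where 3397 to 4527 of all genes were called in place of 5381. On the spike-in scale Kif9, Kif3b, Kif2a, Kif18b, Kif20a, Kif21b, Kifc1 and Kifc3 stayed called whichever 1 of the 12 libraries was left out.

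**Figure D4:**
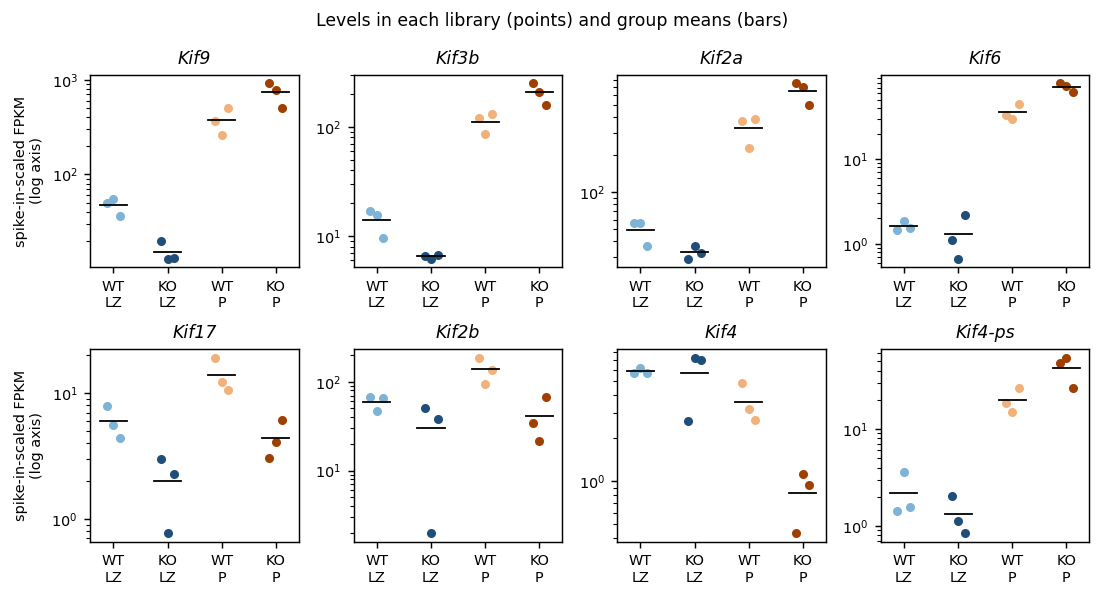
Spike-in-scaled FPKM (log axis) in each library for 8 kinesin genes, with points for libraries and bars for group means; KO marks KO-labelled and P pachytene libraries. In the upper row Kif9, Kif3b, Kif2a and Kif6 are higher in the KO-labelled pachytene group than in the WT one, and in the lower row Kif17, Kif2b and Kif4 are lower there.

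Genes that work with kinesins were read from lists, beginning with light chains, adaptors and the centromere kinesin Cenpe, whose symbol is outside the rule. From LZ to pachytene in WT 12 of 13 rose and 0 fell on the spike-in scale, against 80.9% and 0.487% of all genes. On the median-ratio scale 3 rose and 6 fell, against 20.2% and 18.1%. The 3 with the largest changes were Rhot2 (log2 change 2.91, SE 0.26, adjusted p = 2.81e-07) and Rhot1 (log2 change 2.59, SE 0.25, adjusted p = 5.47e-07), which anchor motors to mitochondria, and the scaffold gene Mapk8ip2 (log2 change 2.73, SE 0.29, adjusted p = 1.60e-06). In the KO-labelled LZ libraries 2 fell, Mapk8ip2 (log2 change -1.20, SE 0.29, adjusted p = 0.0248) and the light chain Klc3, which is found in the sperm tail (log2 change -1.09, SE 0.31, adjusted p = 0.0381). At pachytene 4 rose, led by the light chain Klc2 (log2 change 1.12, SE 0.29, adjusted p = 0.0162), and 0 fell. Of all genes, 12.9% fell at LZ and 24.6% rose and 14.3% fell at pachytene on the spike-in scale. With median-ratio scaling 0 of the 13 were called between the genotypes at either stage in limma.

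Of 30 spindle and cytokinesis genes that are not kinesins, 27 rose from LZ to pachytene in WT on the spike-in scale, and 2 rose and 15 fell on the median-ratio scale. Their median there was -0.49, beside -0.64 for the 14 kinesins of mitosis and cytokinesis. The largest rises were those of the meiotic kinase Aurkc (log2 change 3.002, SE 0.34, adjusted p = 2.28e-06), the microtubule bundler Prc1 (log2 change 2.85, SE 0.21, adjusted p = 8.57e-08) and the checkpoint kinase Ttk (log2 change 2.46, SE 0.30, adjusted p = 5.46e-06). In the KO-labelled LZ libraries 10 fell, led by the kinases Plk1 (log2 change -1.62, SE 0.40, adjusted p = 0.0252), Aurka (log2 change -1.44, SE 0.30, adjusted p = 0.0178) and Aurkb (log2 change -1.32, SE 0.39, adjusted p = 0.0424). At pachytene 8 rose and 1 fell. With median-ratio scaling 0 fell at LZ (limma, median -0.13), and 0 rose and 1 fell at pachytene. On the spike-in scale 12.9% of all genes fell at LZ and 24.6% rose at pachytene. Between the stages in WT 80.9% of all genes rose on that scale. With median-ratio scaling 20.2% rose and 18.1% fell, which also applies to the dynein genes that follow. Of 22 genes of cytoplasmic dynein and dynactin, the motor that runs towards the opposite microtubule end from most kinesins, 21 rose from LZ to pachytene in WT, and 9 rose and 4 fell on the median-ratio scale. The subunits of the dynein that returns cargo from the flagellum tip, Dync2h1 (log2 change 3.41, SE 0.26, adjusted p = 9.71e-08) and Dync2li1 (log2 change 3.40, SE 0.20, adjusted p = 3.77e-08), were among the 3 with the largest rises, with the light chain Dynlrb2 (log2 change 3.45, SE 0.25, adjusted p = 7.69e-08). At pachytene 8 of the 22 were higher and 3 lower in the KO-labelled libraries, against 24.6% and 14.3% of all genes, and with median-ratio scaling 2 were higher and 3 lower. The largest change was the fall of the light chain Dynll2 (log2 change -2.26, SE 0.39, adjusted p = 0.0035).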

How the data were processed

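The study measured polyadenylated RNA, amplified as cDNA and sequenced as 150-base paired ends, in 12 libraries. Per the submitters' processing notes, TopHat2 2.1.1 and Cufflinks 2.2.1 were used with mm9. The authors deposited FPKM, scaled with ERCC spike-ins per the file's name and headers. The annotation, strand setting and formula of the scaling are not given in the sources used here, so reads of genes on opposite strands that overlap cannot be told apart. The 4 columns without a name were not used.

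Genes that reached 1 in 3 or more libraries were transformed as log2(value + 1). The 4 group means were estimated from the 12 libraries with limma 3.58.1 (R 4.3.3, variances following the mean level), and p-values were adjusted over the 15400 genes tested, two-sided. The fit was tested on simulated data. Median-ratio factors came from 13136 genes above 0 in every library. Alternatives were median-ratio scaling, a pseudocount of 5, no filter, the replicate number as a block, fits of 2 groups alone, and each library left out. Log2 changes are printed for called members, or the 4 with the smallest p where fewer were called, between genotypes and for the difference of the KO effects, for the 6 highest and 6 lowest between stages, and for up to 3 called genes of a list. Kif2b, Kif21a, Kif3a, Kif24, Kif7, Kif15, Kif20b, Kif17 between the stages in WT and Kif4 in the difference were also described after their values were seen. Members, lists and role groups were chosen with earlier results of these data known.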

Additional observations from a re-analysis of the deposited data

Results flagged for a closer look

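The KO effect differed between the stages for 19 kinesin genes by the test of the difference itself (limma, adjusted p under 0.05, spike-in scale, 3 libraries per group). Each effect was higher at pachytene than at LZ, and the differences in log2 change were Kif9 2.54, Kif3b 1.83, Kif20a 1.62, Kif2a 1.57, Kif7 1.56, Kif18b 1.55, Kifc3 1.51, Kif27 1.49, Kif4-ps 1.46 and Kifc1 1.44 for the larger ones. They were Kif21b 1.40, Kif2c 1.25, Kif20b 1.23, Kif6 1.22, Kif11 1.15, Kif3a 1.13, Kif15 1.05, Kif14 0.98 and Kif22 0.95 for the smaller ones. The median difference over all 15400 genes was 0.72, and 34.9% of them were called higher. On the median-ratio scale Kif9 and Kif3b passed the test and the other 17 did not. The values of Kif9 and Kif3b in every library are given above. For the same difference 16 of 20 pachytene and A-MYB markers were called higher, 5 of 20 with median-ratio scaling, and of 20 round spermatid markers 1 was on either scale. The part of these markers' cells in the differences was not tested.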

How the results depend on the processing

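Counts below are members called out of 37, or out of 42 without the filter. Those over all genes are out of 15400, or out of 23235 without the filter. At LZ the 5 called lower in KO-labelled libraries became 0 with median-ratio scaling, 1 with a pseudocount of 5, 0 without the filter and 0 in the fit of the 2 groups alone. Over all genes the 1992 called lower became 106, 1101, 0 and 0 in these settings. At pachytene the 8 called higher became 1 with median-ratio scaling, 15 with a pseudocount of 5 and 5 without the filter, and the 2 called lower became 1 with median-ratio scaling. Over all genes the 3784 called higher became 505, 5179 and 2469, and the 2196 called lower became 1491. Between the stages, median-ratio scaling moved the WT counts from 29 higher and 1 lower to 5 and 8, and the KO-labelled counts from 33 higher and 1 lower to 9 and 11. The WT counts over all genes moved from 12455 and 75 to 3111 and 2780. Those in KO-labelled libraries moved from 11830 and 436 to 4786 and 4577. For the difference of the KO effects median-ratio scaling moved 19 higher to 2, and without the filter 1 was called lower in place of 0. Of all genes 5381 were called higher, and 353 with median-ratio scaling. Without the filter 393 of all genes were called lower in place of 538. With 1 library left out, the counts ranged from 0 to 5 lower at LZ, 0 to 9 higher and 0 to 3 lower at pachytene, 26 to 30 higher and 0 to 2 lower between the stages in WT, 30 to 33 higher in KO-labelled libraries, and 8 to 20 higher and 0 to 1 lower for the difference. The cause was not tested.

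Stage changes that turned under median-ratio scaling were those in WT of Kif23 (-1.81), Kif1c (-0.94), Kif3c (-0.40) and Kif13b (-0.96), and those in KO-labelled libraries of Kif1c (-1.40), Kif21a (-1.86), Kifc1 (-0.99) and Kif17 (-1.26). With the other pseudocount, no filter, the replicate block or 1 library left out, 0 of the 58 named changes turned, and in the fits of 2 groups alone, which exist for 39 of them, 0 did. Same-numbered libraries of different groups had deviations correlated at -0.167 to 0.259, over 0.1 in 7 of 18 pairs. Of 36 best matches 19 were to the own number. These values do not decide whether the numbers mark pairs, which the labels do not state, and the main fit did not use pairs. With the replicate block the 1 member called lower between the stages in WT became 0, and 6 of the 58 named changes lost their call. The unknown depth sets no limit that can be computed for low members such as Kif12 or Kif1a.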
